A study of Mus musculus with 5 samples.

Results

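The genes described here are those of the proteasome and the immunoproteasome, measured as transcript counts in sorted mouse group 3 innate lymphoid cells (ILC3) and CD4 T cells. Members were the rows of the count table whose NCBI gene identifier has a mouse symbol that starts with Psma, Psmb, Psmc, Psmd, Psme, Psmf or Psmg followed by a number, with pseudogenes left out. The rule found 50 of the 27179 genes of the table, spread over 16 chromosomes. They are 8 genes of the alpha rings, 4 noncatalytic and 3 standard catalytic genes of the beta rings, 3 catalytic genes of the immunoproteasome and 1 of the thymus. The regulatory particle has 6 ATPase genes and 3 other genes of its base, 8 genes of its lid and 3 of its assembly chaperones. The rest are 4 genes of other activators, the PI31 gene Psmf1, 4 genes of core assembly chaperones, and 2 genes, Psmc3ip and Psme3ip1, whose symbol fits but whose products are not subunits. Psmc3ip encodes a meiotic recombination factor and Psme3ip1 a protein that binds the activator PA28 gamma.

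The proteasome is a barrel of stacked rings that cuts proteins into peptides, and its outer alpha rings gate the entry to inner beta rings that hold the proteolytic sites. A regulatory particle on the end of the barrel binds ubiquitin-tagged proteins, removes the tag and unfolds and threads the chain with a ring of ATPases. Interferon gamma induces alternative catalytic subunits, which replace the standard ones in newly built barrels, and the activator PA28, and lymphocytes are known to hold much of this immunoproteasome, whose peptides are loaded on MHC class I.

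The series compared ILC3 with CD4 T cells within a study of interleukin-2 and regulatory T cells of the gut, and the labels of these libraries do not name the tissue. ILC3 were sorted for CD45, CD127 and a green fluorescent reporter without CD3, in 3 libraries, and CD4 T cells for CD45, CD3 and CD4, in 2 libraries. The donors were 3 wild type C57BL/6 mice per the series' design text, untreated as far as the labels say, and the reporter's construct is not described. Full-length complementary DNA was amplified from few cells, and libraries are not tied to mice, so p-values measure a spread between libraries that may be in part technical.

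Libraries held 20905412 to 25956023 counts in ILC3, and 20165672 and 15123715 in CD4 T. All 8 defining ILC3 genes (such as Il22) were called higher in ILC3, and 5 of 9 defining T cell genes lower, with summed levels of 278.4 to 724.9 CPM in ILC3 against 1131 and 2753 CPM in CD4 T. Of the markers of other cells, 10 of 13 plasmacytoid dendritic cell genes and 9 of 11 monocyte and macrophage genes were called lower in ILC3 than in the libraries labelled CD4 T, with summed levels of 329.9 to 773 CPM in ILC3 against 5441 and 4475 in CD4 T for the first list, and 136.5 to 162.3 CPM against 1726 and 2298 for the second. CPM stands for counts per 1000000 on the scale of TMM, a scaling of library sizes by the bulk of genes. Clec10a, Cd33 and Cd163 of the macrophage list were at 0 in all 3 ILC3 libraries. The Paneth cell gene Defa24 had 15.7, 1.79 and 20.9 CPM in ILC3, against 55.3 and 21950 CPM in CD4 T. Of 8 conventional dendritic cell genes, Clec9a, Flt3 and Itgax were called lower in ILC3, averaging 0.0195, 1.87 and 0.012 CPM in ILC3 against 128, 43.0 and 98.4 CPM in CD4 T, and Zbtb46 was called higher. Their sums, 6271 to 8820 CPM in ILC3 and 6239 and 15790 CPM in CD4 T, were nearly all Cd74, at 6072 to 8648 CPM in ILC3 and 5755 and 15230 CPM in CD4 T. Of 11 B and plasma cell genes 1 was called lower, with sums of 18160 to 101000 CPM in ILC3 and 35120 and 21670 CPM in CD4 T. The part of these other cells in the proteasome values was not tested, and in such bulk samples fewer cells of a type and less RNA per cell cannot be told apart. Log2 CPM correlated across genes at 0.908 to 0.929 within ILC3 and at 0.855 between the CD4 T libraries.

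Most proteasome genes had somewhat higher fitted levels in ILC3 on this scale, and 2 of them passed the test for a difference. Of the 49 members with enough counts to test, the ATPase gene Psmc1 was called higher in ILC3 and the lid gene Psmd3 lower, with edgeR's quasi-likelihood test at a Benjamini-Hochberg adjusted p under 0.05. That is 4.08% of the members, where 13.7% of all 12747 tested genes were called, 6.46% higher and 7.21% lower. At an unadjusted edgeR p under 0.05 there were 18 members, and 33.4% of all tested genes. The fitted log2 fold change of ILC3 over CD4 T was above 0 in 38 of 49 members, with a median of 0.62, where the median of all tested genes was -0.10. Every ILC3 library lay above both CD4 T libraries for 28 members, or 57.1%, where this held for 25.5% of all tested genes, and below both for 5 members, where this held for 29.6% of all tested genes. Psma4 and Psmb10 are among the 28 by narrow margins, 129.8 against 129.6 CPM and 218.6 against 217.6 CPM. Psma8, also among them, passed the filter on low counts through ILC3 alone. With upper quartile factors, 26 members and 24.8% of all tested genes were higher in this way. With library size alone in place of TMM, the median of all genes moved to -0.59 and that of the members to 0.12, with 28 fold changes above 0. On that scale 8 members were higher and 8 lower without overlap, where this held for 15% and 40% of all tested genes, so the share of members higher was near that of all genes and the share lower was under it. The gap between the median of members and that of all genes was 0.72 on both scales. A scaling moves all genes of a library alike, so this gap could hardly change.

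**Figure D1:**
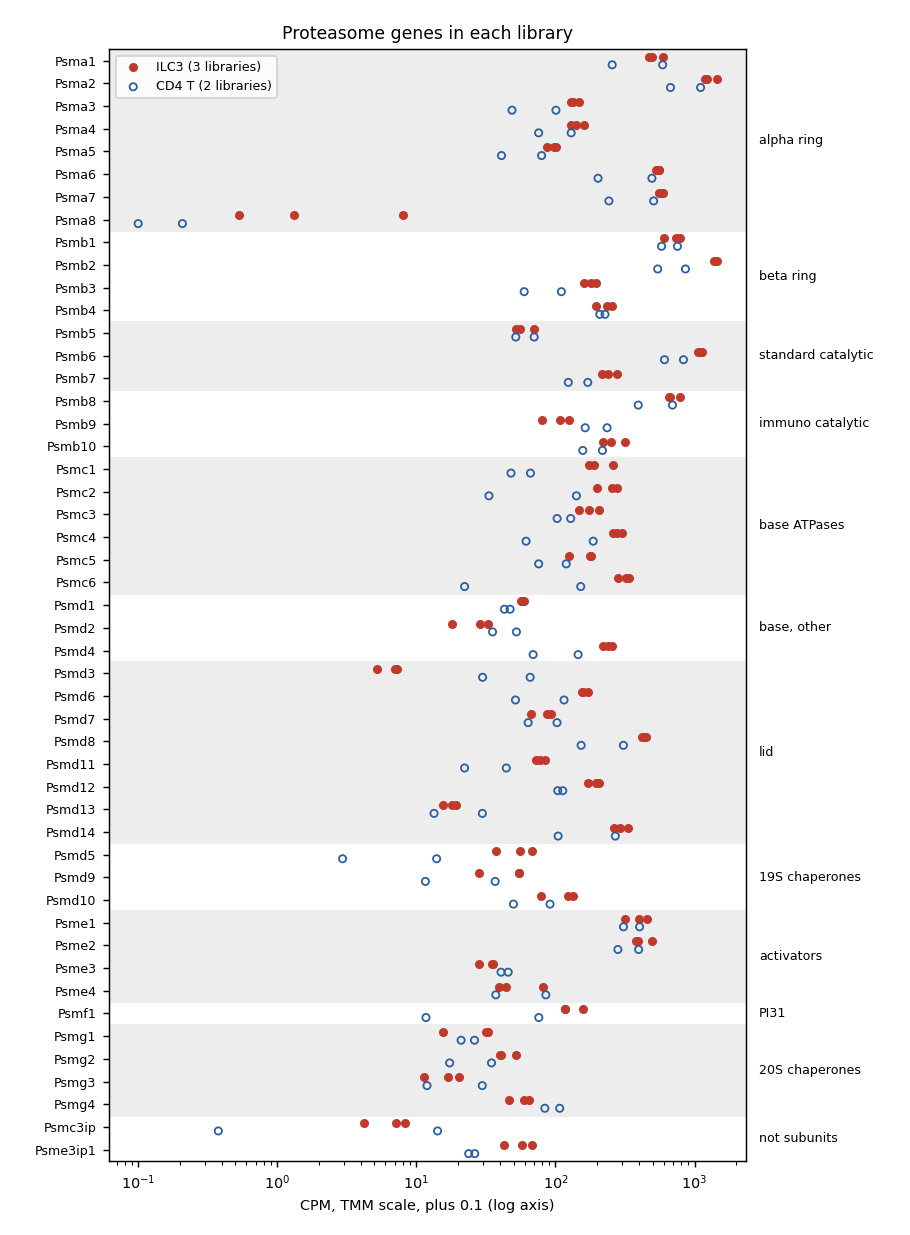
Level of each of the 49 tested proteasome genes in each library, as CPM on the TMM scale plus 0.1 on a log axis, grouped by role. Filled red points are the 3 ILC3 libraries and open blue points the 2 CD4 T libraries. For most genes the red points lie close together, to the right of both or of 1 of the blue points. Psmd3, Psmb9, Psmd2, Psme3 and Psmg4 have their red points to the left of both blue points.

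Summed over the members, the ILC3 libraries held 12350, 13300 and 12510 CPM, against 6505 and 10500 CPM in CD4 T. Every ILC3 sum lay above both CD4 T sums, and the difference of mean log2 sums was 0.62, with an exact two-sided permutation p of 0.2, the smallest that 3 against 2 libraries allow, and 0.257 after adjustment over the 9 sums. As a share of all counts with no scaling, members took 1.32%, 0.99% and 1.03% of the ILC3 libraries, against 0.815% and 1.28% of the CD4 T libraries, and these shares overlapped. Without CD4 T replicate 1 the difference of the sums was 0.28, and without CD4 T replicate 2 it was 0.98.

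The CD4 T libraries differed from each other more than the ILC3 libraries did. Of 48 members counted in both CD4 T libraries, 41 were higher in replicate 2, as were 48.3% of all tested genes counted in both. The median ratio of replicate 2 over replicate 1 was 1.63 for the members and 0.964 for all tested genes. The libraries of CD4 T differed by more than 2-fold for 20 members, and those of ILC3 for 3. The shares of all tested genes that did so are not given here. Across genes the CD4 T libraries also correlated less with each other, at 0.855, than the ILC3 libraries did, at 0.908 to 0.929. The gap was 6.87-fold for Psmc6 and 6.52-fold for Psmf1. Replicate 2 is also the library with the high Defa24 level, and the part of that in the gap was not tested.

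The ATPases of the base form the ring that unfolds substrates, and their genes had a median log2 fold change of 1.33, the highest of the classes with more than 1 gene. The 6 genes summed to 1546, 1221 and 1384 CPM in ILC3, against 343 and 794 CPM in CD4 T, which is 1.40 on the log2 scale with an exact permutation p of 0.2. The difference was 0.80 without CD4 T replicate 1. All 6 fold changes were above 0 on both scales. On the TMM scale every ILC3 library lay above both CD4 T libraries for all 6, where this held for 25.5% of all tested genes. With library size alone it held for 2 of them, Psmc1 and Psmc6, and for 15% of all tested genes.

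Psmc1, which encodes the ATPase Rpt2 that helps to open the gate of the barrel, had 258, 189.5 and 175 CPM in ILC3 libraries, against 47.8 and 66.0 CPM in CD4 T libraries. The groups were well apart, and the gene was higher in ILC3 by 1.87 on the log2 scale (SE 0.33, edgeR adjusted p = 0.0182). The call was lost without CD4 T replicate 1 (edgeR adjusted p = 0.0612), without ILC3 replicate 1 (0.0622), without ILC3 replicate 2 (0.0574) and with library size alone (0.0725). The gene lies on chromosome 12 (100110202 to 100123364, plus strand, GRCm38). Its promoter, chr12:100109952-100110251 on the plus strand, is shown because it belongs to the only member called higher, with the CCAAT box in capitals.
Psmc1: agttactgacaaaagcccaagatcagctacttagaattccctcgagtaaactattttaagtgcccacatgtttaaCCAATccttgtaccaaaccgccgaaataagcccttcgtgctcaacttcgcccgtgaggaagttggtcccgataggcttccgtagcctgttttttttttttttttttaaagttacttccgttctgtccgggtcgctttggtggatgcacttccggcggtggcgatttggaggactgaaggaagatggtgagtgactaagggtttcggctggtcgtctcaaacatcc
The sequence is from RefSeq on GRCm38.p6 and runs from 250 bases before to 50 bases after the annotated start, and the capitals begin 175 bases before it.

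The other 5 ATPase genes did not pass the test. Psmc6, which encodes Rpt4, had 322, 282 and 340 CPM in ILC3, against 22.1 and 152 CPM in CD4 T, and its log2 fold change of 1.86 carried an SE of 0.75 (edgeR adjusted p = 0.138). The level in CD4 T replicate 2 was 6.87 times that in replicate 1, where the ILC3 libraries differed by 1.21 times at most. Psmc2, for Rpt1, had 279, 199 and 254 CPM in ILC3, against 33.2 and 141 CPM in CD4 T, with a 4.26-fold gap inside CD4 T. Psmc3, for Rpt5, had the lowest fold change of the class, 0.61 ± 0.29 (SE, edgeR adjusted p = 0.2), with 147 to 207 CPM in ILC3 and 103 and 129 CPM in CD4 T. Fold changes of Psmc4 and Psmc5 lay between these, at 1.17 and 0.72. Per length, the levels of the 6 genes lay close together: the highest, Psmc4, and the lowest, Psmc3, differed 2.26-fold in mean RPKM in ILC3, and Psmc4 and Psmc1 differed 2.41-fold in CD4 T. RPKM is CPM divided by the length of a gene's joined exons in kilobases.

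Among the 3 other base genes, Psmd4 encodes the ubiquitin receptor Rpn10, and Psmd1 and Psmd2 the scaffolds Rpn2 and Rpn1. Psmd4 had 255, 238 and 220 CPM in ILC3, against 69.0 and 145 CPM in CD4 T (log2 1.15, edgeR adjusted p = 0.0873). Psmd2 ran the other way, with 32.8, 17.9 and 28.5 CPM in ILC3, against 52.3 and 35.2 CPM in CD4 T (log2 -0.73, edgeR adjusted p = 0.235). Neither gene's libraries overlapped between groups, and neither passed the test. Psmd1 had 56.0 to 59.0 CPM in ILC3, and 42.9 and 47.1 CPM in CD4 T.

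The lid removes ubiquitin chains, and its 8 genes under the symbol rule gave both the only member called lower and 4 members whose ILC3 libraries all lay above CD4 T. Of all tested genes, 25.5% lay above in this way. These 8 lid genes summed to 1245, 1282 and 1264 CPM in ILC3, against 594 and 995 CPM in CD4 T (log2 0.72, exact permutation p = 0.2). The difference was 0.35 without CD4 T replicate 1, 1.10 without CD4 T replicate 2 and 0.20 with library size alone. Sem1, another lid gene, lies outside the symbol rule, so neither the sum nor its difference stands for the whole lid. Sem1 had 795.5, 866.8 and 831.5 CPM in ILC3, against 1443 and 875.6 CPM in CD4 T (log2 -0.48, edgeR adjusted p = 0.343). It ran the other way from the sum, and in CD4 T replicate 1 its level alone exceeded that of the 8 genes together. Psmd3, which encodes the lid subunit Rpn3, had 7.21, 6.91 and 5.14 CPM in ILC3 libraries, against 65.7 and 29.8 CPM in CD4 T libraries. Every ILC3 library was below both CD4 T libraries, and edgeR called the gene lower in ILC3 (log2 -2.90, SE 0.45, adjusted p = 0.0127). The call was lost without CD4 T replicate 1 (log2 -2.21, edgeR adjusted p = 0.0624) and held in the other 4 fits with a library left out. Psmd3 lies on chromosome 11 (98682554 to 98695978, plus strand) and overlaps no other gene of the annotation used.

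The lid is built with its subunits in equal numbers. Psmd3 was the lowest of the 8 lid members per length in ILC3, at 2.99 ± 0.52 RPKM (SD, n = 3), where Psmd8 was highest at 196 ± 7.08 RPKM, a 65.6-fold range. In CD4 T the range was 11.2-fold, from Psmd14 at 121 RPKM to Psmd13 at 10.8 RPKM, and Psmd3 stood at 22.2 ± 11.8 RPKM (SD, n = 2). Psmd3 ranked 48 of the 50 members in ILC3 and 36 in CD4 T.

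The highest fold change of the lid was that of Psmd11, for Rpn6, which had 72.3, 77.3 and 84.3 CPM in ILC3, against 22.1 and 44.2 CPM in CD4 T (log2 1.23, edgeR adjusted p = 0.0695). Psmd12, for Rpn5, differed by 0.82 (edgeR adjusted p = 0.0818), and its libraries were close together in both groups, with 171 to 204 CPM in ILC3 and 104 and 113 CPM in CD4 T. Psmd6 and Psmd8 had fold changes of 0.95 and 0.91 and edgeR adjusted p-values of 0.143 and 0.142. Psmd14, the deubiquitinase Rpn11, had 262, 333 and 292 CPM in ILC3, against 104 and 269 CPM in CD4 T, and overlapped between groups, as did Psmd7, its partner Rpn8, and Psmd13.

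The chaperones that help to build the base, Psmd5, Psmd9 and Psmd10, had fold changes above 0 on both scales. Psmd5 had 37.2, 55.5 and 68.0 CPM in ILC3, against 2.85 and 13.9 CPM in CD4 T, at a log2 of 2.68 with an SE of 0.72. It just missed the threshold (edgeR adjusted p = 0.054) and passed it with a robust dispersion (0.047). Psmd9 and Psmd10, known as p27 and gankyrin, had fold changes of 0.92 and 0.66 and libraries that overlapped between groups.

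**Figure D2:**
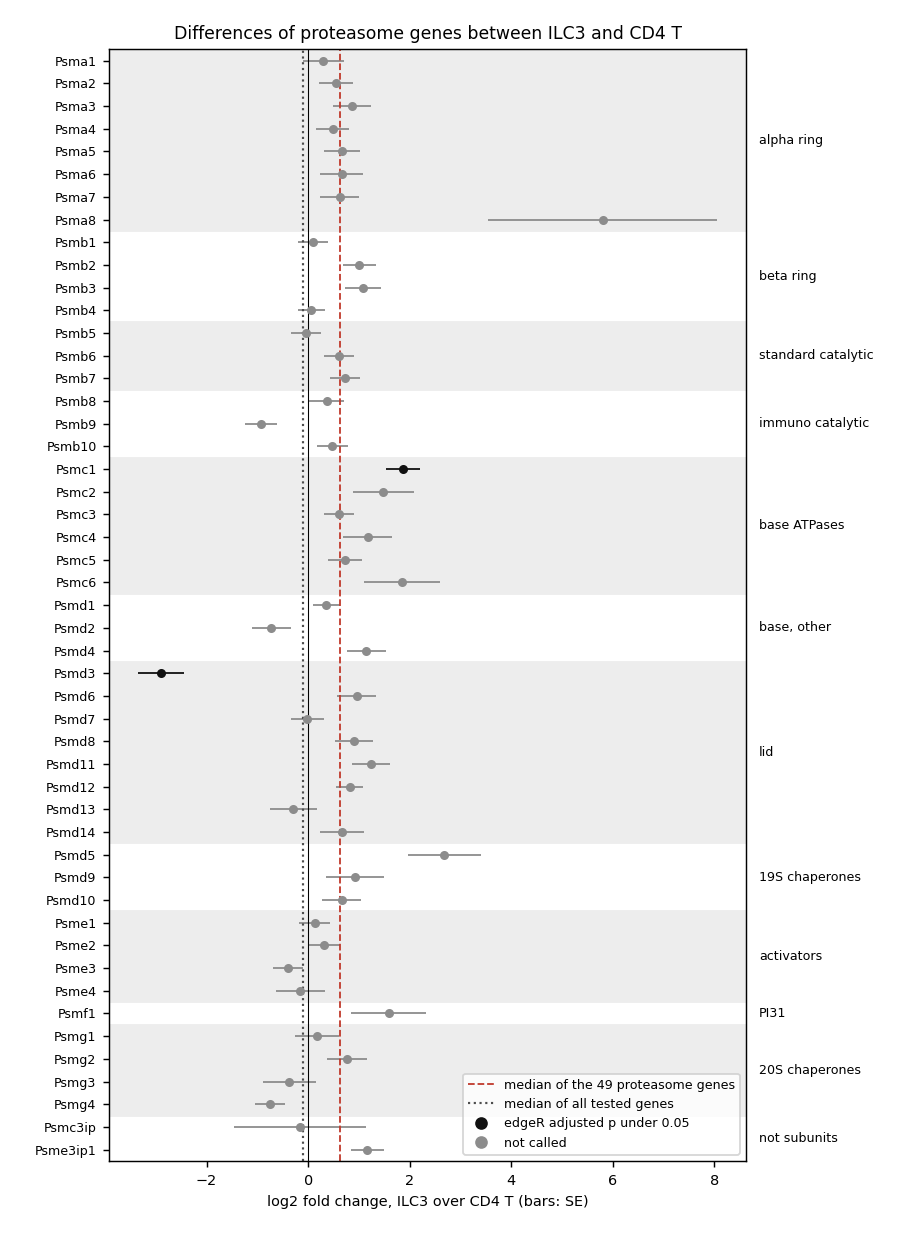
Log2 fold change of ILC3 over CD4 T with its SE for each of the 49 tested genes, grouped by role. Black points are the 2 genes with an edgeR adjusted p under 0.05, and vertical lines mark 0, the median of the members at 0.62 and the median of all tested genes at -0.10. The ATPases lie to the right of 0, while 11 genes, among them Psmd3, Psmb9, Psmg4 and Psmd2, lie to its left.

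The 7 alpha ring genes of the ordinary barrel and 4 noncatalytic beta ring genes gave no call. Fold changes of the alpha ring ran from 0.30 for Psma1 to 0.87 for Psma3, leaving out Psma8. Psma3 had 128, 133 and 146 CPM in ILC3, against 48.6 and 101 CPM in CD4 T (edgeR adjusted p = 0.158). Psma1 had 474, 592 and 493 CPM in ILC3, against 256 and 590 CPM in CD4 T (edgeR adjusted p = 0.662). Except for Psma1, the ILC3 libraries lay above both CD4 T libraries for each alpha ring gene on the TMM scale, by a narrow margin for Psma4. Over all tested genes this held for 25.5%. With library size alone it held for Psma8 of the 8 genes and for 15% of all tested genes. The fold changes of Psma1 and Psma4 then turned below 0.

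Of the noncatalytic beta ring genes, Psmb2 had 1370, 1440 and 1422 CPM in ILC3, against 543 and 861 CPM in CD4 T, at a log2 of 1.01 (SE 0.32, edgeR adjusted p = 0.081). Psmb3 had 160.5, 197 and 179.5 CPM in ILC3, against 59.5 and 110 CPM in CD4 T, at 1.08 (edgeR adjusted p = 0.0828). Both kept the ILC3 libraries above CD4 T with library size alone. Psmb1 and Psmb4 had fold changes of 0.09 and 0.06 on the TMM scale and of -0.43 and -0.42 with library size alone. Subunits of a ring are present in equal numbers in the barrel, and their transcripts per length were not: Psma7, at 488 RPKM, was 10.2 times Psma3, at 47.8 RPKM, in ILC3, and Psma1, at 341 RPKM, was 13.0 times Psma3, at 26.2 RPKM, in CD4 T. These ratios depend on the lengths used, 2846 bases for Psma3, 1180 for Psma7 and 1241 for Psma1. Without length, Psma7 and Psma3 averaged 575 and 136 CPM in ILC3, and Psma1 and Psma3 averaged 423 and 74.7 CPM in CD4 T. Psmb2 was the highest member per length in ILC3, at 1642 ± 42.0 RPKM, and the second in CD4 T, at 817 ± 261 RPKM (SD).

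Psma8 encodes an alpha subunit known from the testis, and its counts were 12, 19 and 135 in ILC3, against 0 and 2 in CD4 T. Counts per summed library, with library sizes scaled by TMM, were 60.0 times higher in ILC3, with an exact 95% interval of 16.4 to 500 that covers counting error only, and 43.2 times with library size alone. ILC3 replicate 3 held 135 of the 166 ILC3 counts, and without it the ratio was 15.6 (interval 3.98 to 135). It was 103 without ILC3 replicate 1 and 25.4 without CD4 T replicate 1, and without CD4 T replicate 2 no count was left in CD4 T. The gene passed the filter on low counts through its ILC3 libraries alone, and the difference was not called (edgeR adjusted p = 0.127). Psmb11, the catalytic subunit of the thymus, had no count in any library, which allows up to 0.116 to 0.198 CPM depending on the library, and was not tested.

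The standard catalytic subunits Psmb5, Psmb6 and Psmb7 give the chymotrypsin-like, caspase-like and trypsin-like activities of the barrel, and none of the 3 genes was called. They summed to 1331, 1439 and 1416 CPM in ILC3, against 784 and 1073 CPM in CD4 T (log2 0.60, exact permutation p = 0.2). The difference was 0.38 without CD4 T replicate 1 and 0.09 with library size alone. Psmb6 had 1061, 1131 and 1089 CPM in ILC3, against 608 and 832 CPM in CD4 T (log2 0.60, edgeR adjusted p = 0.206). Psmb7 had 215, 238 and 276 CPM in ILC3, against 124 and 171 CPM in CD4 T (log2 0.72, edgeR adjusted p = 0.143). Psmb5 had 55.2, 69.9 and 52.2 CPM in ILC3, against 51.8 and 70.2 CPM in CD4 T, and its fold change was -0.05 ± 0.30 (SE). With library size alone, Psmb5 stood at -0.56 while Psmb6 and Psmb7 kept fold changes above 0, at 0.10 and 0.22.

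Per length the 3 genes were far apart: Psmb6 averaged 1370 ± 44.1 RPKM in ILC3 and 903 ± 198 RPKM in CD4 T, and Psmb5 averaged 65.8 ± 10.5 RPKM in ILC3 and 67.8 ± 14.5 RPKM in CD4 T (SD, n = 3 and 2). Psmb6 lies on chromosome 11 (70525324 to 70527858). Its promoter window, chr11:70525107-70525406 on the plus strand, is set on a RefSeq start at 70525357, which lies 33 bases inside those bounds. It is shown as that of the most abundant catalytic gene, and its capitals mark a match to TGACNNNGC, the core of the antioxidant response element, which begins 9 bases before the RefSeq start and so 24 bases inside the bounds given.
Psmb6: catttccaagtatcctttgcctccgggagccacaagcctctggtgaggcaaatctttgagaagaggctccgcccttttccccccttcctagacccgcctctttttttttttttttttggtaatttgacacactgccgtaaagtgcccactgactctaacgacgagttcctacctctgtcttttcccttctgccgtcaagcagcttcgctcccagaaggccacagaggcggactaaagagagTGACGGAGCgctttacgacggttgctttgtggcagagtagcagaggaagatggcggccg

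None of the 3 immunoproteasome genes was called, and Psmb9 was the one whose ILC3 libraries lay below CD4 T. The 3 genes summed to 996, 1229 and 979 CPM in ILC3, against 714 and 1147 CPM in CD4 T, with overlap (log2 0.23, exact permutation p = 0.6). The sign of this difference turned to -0.28 with library size alone and to -0.10 without CD4 T replicate 1. Psmb8, also LMP7, which takes the place of Psmb5, had 666, 790 and 653 CPM in ILC3, against 394 and 694 CPM in CD4 T (log2 0.37, edgeR adjusted p = 0.503). Psmb10, also MECL-1, which takes the place of Psmb7, had 250, 314 and 219 CPM in ILC3, against 157 and 218 CPM in CD4 T (log2 0.48, edgeR adjusted p = 0.334). Both genes had fold changes just below 0 with library size alone, at -0.13 and -0.03.

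Psmb9, also LMP2, which takes the place of Psmb6, had 80.0, 126 and 107 CPM in ILC3, against 164 and 235 CPM in CD4 T. All 3 ILC3 libraries lay below both CD4 T libraries, at a log2 of -0.93 (SE 0.32), and the gene was not called (edgeR adjusted p = 0.0933). It was called lower in ILC3 with library size alone (log2 -1.47, edgeR adjusted p = 0.0309) and by the DESeq2 Wald test (adjusted p = 0.0315), and in none of the other 13 alternatives.

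Psmb9 and Psmb8 lie in the class II region of the MHC on chromosome 17, with the peptide transporter gene Tap1 between them. Psmb9 runs from 34182030 to 34187330 on the minus strand, Tap1 from 34187556 to 34197225, and Psmb8 from 34198195 to 34201454 on the plus strand. Only 225 bases separate Psmb9 from Tap1, and 969 separate Tap1 from Psmb8. The window chr17:34187281-34187580, minus strand, therefore spans the whole stretch between the starts of Psmb9 and Tap1, and it is shown with that of Psmb8, chr17:34197945-34198244, plus strand, because these genes lie on either side of Tap1. Capitals mark a CCAAT box, read as ATTGG, for Psmb9, and a match to TTCNNNGAA, the gamma-activated site of interferon signalling, for Psmb8.
Psmb9: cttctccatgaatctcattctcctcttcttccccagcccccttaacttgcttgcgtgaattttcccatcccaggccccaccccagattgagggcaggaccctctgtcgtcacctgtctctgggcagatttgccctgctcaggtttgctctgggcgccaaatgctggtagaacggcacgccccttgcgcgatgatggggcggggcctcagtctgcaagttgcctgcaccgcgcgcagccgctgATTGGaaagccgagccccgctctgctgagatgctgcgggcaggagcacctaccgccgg
Psmb8: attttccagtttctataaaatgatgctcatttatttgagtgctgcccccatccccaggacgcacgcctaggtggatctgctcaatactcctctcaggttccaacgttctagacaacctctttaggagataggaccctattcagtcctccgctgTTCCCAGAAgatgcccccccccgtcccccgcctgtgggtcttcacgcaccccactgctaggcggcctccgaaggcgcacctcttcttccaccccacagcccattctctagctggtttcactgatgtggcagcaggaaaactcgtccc
The capitals begin 8 bases before the start of Psmb9 and 97 bases before that of Psmb8.

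Motifs were searched on both strands of the 300 bases around each start, in 46 entries of 42 members and in all 32851 entries of the RefSeq table. TGACNNNGC was in 6 member entries, or 13%, and in 12.4% of all. The core of the interferon-stimulated response element was in 5, those of Psmb3, Psmd4, Psmd9, Psme1 and Psmg4, or 10.9%, and in 3.44% of all. TTCNNNGAA was in 3, those of Psmb8, Psmd2 and Psmg1, or 6.52%, and in 8.3% of all. CCAAT was in 16, or 34.8%, and in 37.4% of all. Matches to different motifs were counted separately, whether or not they overlap, and a match is a run of letters only.

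Ratios within a library do not depend on the scaling between libraries. Psmb9 over Psmb6, per kilobase, was 0.0445, 0.0655 and 0.0583 in ILC3, against 0.159 and 0.166 in CD4 T, so the ratio was lower in every ILC3 library, by a mean log2 difference of -1.55. Psmb8 over Psmb5 ran the other way, at 6.66, 6.24 and 6.91 in ILC3, against 4.20 and 5.46 in CD4 T, a log2 difference of 0.46 that was 0.27 without CD4 T replicate 1. Psmb10 over Psmb7 was 1.03, 1.17 and 0.702 in ILC3, against 1.12 and 1.13 in CD4 T, and overlapped. The 3 immunoproteasome genes over the 3 standard genes gave 0.418, 0.481 and 0.390 in ILC3, against 0.521 and 0.604 in CD4 T. The exact two-sided permutation p was 0.2 for each ratio that did not overlap and 0.6 for Psmb10 over Psmb7, and 0.25 and 0.6 after adjustment over the 5 ratios, so none reaches the threshold in this design.

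**Figure D3:**
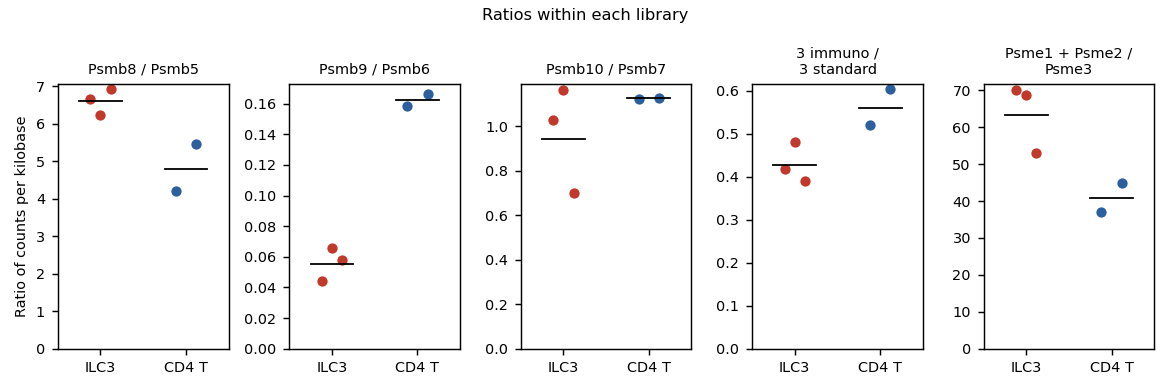
Ratio of counts per kilobase in each library for the 3 pairs of immunoproteasome and standard subunits, for their sums and for Psme1 plus Psme2 over Psme3, each on an axis from 0. Points are libraries, 3 of ILC3 in red and 2 of CD4 T in blue, and bars are means. Psmb9 over Psmb6 lies between 0.0445 and 0.0655 in ILC3 and at 0.159 and 0.166 in CD4 T.

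As shares of the 6 catalytic genes per kilobase, Psmb9 took 2.65%, 3.69% and 3.44% in ILC3, against 8.59% and 8.54% in CD4 T. Psmb8 took 17.4% to 19.3% in ILC3, against 17.2% and 20.96% in CD4 T. Psmb10 took 7.23% to 9.51% in ILC3, against 8.50% and 8.16% in CD4 T. The difference in the whole immunoproteasome share, which was 29.5%, 32.5% and 28.1% in ILC3 against 34.3% and 37.7% in CD4 T, thus lay mainly in Psmb9.

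**Figure D4:**
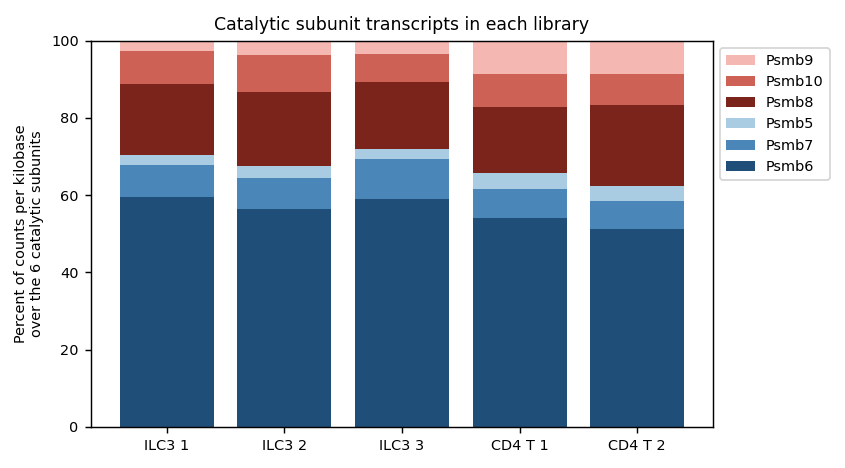
Stacked bars of the 6 catalytic genes as percent of their summed counts per kilobase, 1 bar for each library, ILC3 on the left. Blue shades are the standard genes and red shades the immunoproteasome genes. Psmb6 takes 51.3% to 59.5% of each bar, and the Psmb9 band is 2.65% to 3.69% in ILC3 and 8.54% and 8.59% in CD4 T.

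None of the 4 genes of other activators was called. Psme1 and Psme2 encode PA28 alpha and beta, the interferon-induced activator of the immunoproteasome, and their genes lie 5912 bases apart on chromosome 14. Psme1 had 397, 455 and 318 CPM in ILC3, against 308 and 402 CPM in CD4 T (log2 0.13, edgeR adjusted p = 0.803). Psme2 had 377, 490 and 393 CPM in ILC3, against 281 and 396 CPM in CD4 T (log2 0.31, edgeR adjusted p = 0.53). Psme3, for the nuclear PA28 gamma, had 28.3, 35.4 and 34.7 CPM in ILC3, against 40.5 and 45.6 CPM in CD4 T, lower in every ILC3 library (log2 -0.39, edgeR adjusted p = 0.396). Psme1 plus Psme2 over Psme3 was 69.9, 68.7 and 52.9 in ILC3, against 37.1 and 44.8 in CD4 T, a log2 difference of 0.63 (exact permutation p = 0.2). Psme4, for the large nuclear activator PA200, had 39.3, 44.3 and 81.1 CPM in ILC3, against 85.2 and 37.1 CPM in CD4 T, and spread as widely within the groups as between them.

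Psmf1, for PI31, had 159, 118 and 116 CPM in ILC3, against 11.6 and 75.8 CPM in CD4 T. The groups did not overlap on the TMM scale, and the fold change of 1.58 carried an SE of 0.73 (edgeR adjusted p = 0.183), with a 6.52-fold gap between the CD4 T libraries.

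The core assembly chaperones pair and order the alpha subunits, and their summed level was lower in every ILC3 library, at 139, 138 and 154 CPM, against 162 and 169 CPM in CD4 T (log2 -0.21, exact permutation p = 0.2). Psmg4 had 46.2, 59.5 and 64.9 CPM in ILC3, against 107 and 83.9 CPM in CD4 T (log2 -0.75, edgeR adjusted p = 0.126). Psmg1 had 31.6, 15.4 and 32.6 CPM in ILC3, against 26.1 and 20.9 CPM in CD4 T, and Psmg3 had 20.2, 11.3 and 16.7 CPM in ILC3, against 11.8 and 29.7 CPM in CD4 T, and both overlapped. Psmg2, the partner of Psmg1, had 40.7, 51.5 and 39.6 CPM in ILC3, against 17.2 and 34.6 CPM in CD4 T (log2 0.76, edgeR adjusted p = 0.231). Of the 2 genes that are not subunits, Psme3ip1 had 68.1, 57.6 and 42.6 CPM in ILC3, against 26.2 and 23.7 CPM in CD4 T (log2 1.17, edgeR adjusted p = 0.0602). Psmc3ip had 4.11 to 8.19 CPM in ILC3, and 0.277 and 14.1 CPM in CD4 T.

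Other genes of the pathway that carry other symbols were read in the same fit, where 6.46% of all tested genes were called higher and 7.21% lower. Of 13 further components and cofactors, 1 was called higher and 1 lower. Fbxo7, an F-box protein that binds PI31, had 46.6, 30.2 and 25.9 CPM in ILC3, against 9.38 and 12.5 CPM in CD4 T (log2 1.64, edgeR adjusted p = 0.0496), just inside the threshold. Zfand2a, an arsenite-induced protein that binds the regulatory particle, had 4.29, 2.94 and 2.57 CPM in ILC3, against 38.5 and 18.6 CPM in CD4 T (log2 -3.12, edgeR adjusted p = 0.0163). The barrel's maturation factor Pomp, at 525 to 653 CPM in ILC3 and 528 and 703 CPM in CD4 T, had a fold change of -0.09.

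Of 11 tested regulators of proteasome genes, 1 was called higher and 2 lower. Maff, a small Maf protein that pairs with the factors of the antioxidant response element, had 79.7, 90.5 and 103 CPM in ILC3, against 34.3 and 23.7 CPM in CD4 T (log2 1.65, edgeR adjusted p = 0.0227). Nlrc5, the transactivator of MHC class I genes, had 11.1, 9.40 and 18.7 CPM in ILC3, against 53.5 and 46.6 CPM in CD4 T (log2 -1.94, edgeR adjusted p = 0.0272). Nfe2l1, the factor known to induce proteasome genes when the proteasome is inhibited, had 5.50 to 7.28 CPM in ILC3, and 16.1 and 9.95 CPM in CD4 T (edgeR adjusted p = 0.222).

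Of 15 tested genes of ubiquitin supply and shuttling, 1 was called higher and 1 lower. Ubqln2, which encodes a shuttle that carries ubiquitin-tagged proteins to the proteasome, was called lower, with 11.3, 9.34 and 9.75 CPM in ILC3 against 59.4 and 24.6 CPM in CD4 T (log2 -2.05, edgeR adjusted p = 0.0341).

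Of 12 genes of MHC class I peptide loading, none was called higher and 3 lower: Tap1, Tap2 and Tapbp. The fold change was above 0 in 7 of the 12. ILC3 libraries lay above both CD4 T libraries for 5 genes and below both for 4. Over all tested genes this held for 25.5% and 29.6%, so the share of loading genes below was near that of all genes. Tap1, next to Psmb9, had 11.1, 14.0 and 17.2 CPM in ILC3, against 109 and 62.9 CPM in CD4 T (log2 -2.61, edgeR adjusted p = 0.0101). Tapbp, for tapasin, had 52.0, 45.2 and 36.2 CPM in ILC3, against 227 and 132 CPM in CD4 T (log2 -2.01, edgeR adjusted p = 0.0155). Tap2, the other chain of the transporter, had 8.68, 4.86 and 4.03 CPM in ILC3, against 27.9 and 23.2 CPM in CD4 T (log2 -2.12, edgeR adjusted p = 0.0414). The light chain B2m, at 14360 to 18440 CPM in ILC3 and 8491 and 12720 CPM in CD4 T, and the heavy chain H2-K1, at 1557 to 1854 CPM in ILC3 and 2013 and 2117 CPM in CD4 T, were not called. The largest fold changes the other way were those of Calr and Pdia3, chaperones of the loading complex. Calr had 251, 159 and 161.5 CPM in ILC3, against 19.9 and 81.2 CPM in CD4 T (log2 1.91, edgeR adjusted p = 0.0825). Pdia3 had 696.5, 457.5 and 469 CPM in ILC3, against 113 and 244 CPM in CD4 T (log2 1.60, edgeR adjusted p = 0.0565). The heavy chain H2-D1 and the peptide trimming enzyme Erap1 also had every ILC3 library above CD4 T, at 1.30 and 0.74, without a call (edgeR adjusted p = 0.131 and 0.13). Class I heavy chain genes are close copies of each other, so their counts are uncertain.

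Of the called genes named here from outside the symbol rule, Tap1 kept its call in all 5 fits with a library left out, at edgeR adjusted p-values of 0.00766 to 0.0455. Fbxo7 and Tap2 lost theirs in all 5, at 0.0642 to 0.169 and 0.0626 to 0.145. Ubqln2 lost its call in 4, without any 1 ILC3 library or CD4 T replicate 1, at edgeR adjusted p-values of up to 0.165. Maff and Tapbp lost theirs without any 1 ILC3 library, at up to 0.0752 and 0.0631. Nlrc5 lost its call without ILC3 replicate 1 or 2 or CD4 T replicate 1, at up to 0.101, and Zfand2a without ILC3 replicate 2 or 3 or CD4 T replicate 1, at up to 0.0968 in edgeR. The plasmacytoid and macrophage markers given above, and Clec9a, Flt3 and Itgax, were higher in the same CD4 T libraries as Psmb9, Tap1, Tap2, Tapbp and Nlrc5, and their part in these values was not tested.

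**Figure D5:**
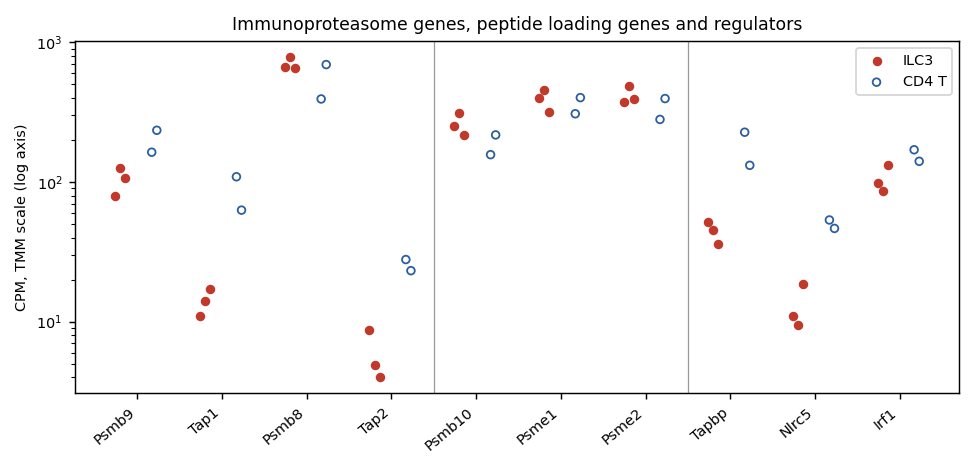
CPM on the TMM scale, on a log axis, of immunoproteasome and PA28 genes beside peptide loading genes and regulators, with ILC3 in filled red and CD4 T in open blue. Psmb9, Tap1, Tap2, Tapbp, Nlrc5 and Irf1 have every ILC3 library below both CD4 T libraries, while Psmb8, Psme1 and Psme2 overlap between groups and Psmb10 does not lie below. Psmb9 was not called, nor was Irf1 (log2 -0.55, edgeR adjusted p = 0.25). The loading genes drawn are the 3 called lower. Not drawn are 5 of the 12 loading genes, among them Calr and Pdia3, with every ILC3 library above both CD4 T libraries. This held for 25.5% of all tested genes. The regulator Maff, called higher in ILC3, is not drawn either. Of the 11 tested regulators, 5 had every ILC3 library below both CD4 T libraries and 2 had every one above. Over all tested genes these shares were 29.6% and 25.5%.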

How the data were processed

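Per the labels' protocols, the SMARTer V4 kit for ultra-low RNA input served for library preparation, and the submitters' processing notes name CASAVA 1.8.2, STAR 2.3.0 and mm10. The authors deposited whole-number counts per gene with no normalization. How reads were counted, on which annotation and whether by strand, is not given in the sources used here; 14 members that overlap another annotated gene (among them Psmb5, Psmb7, Psme1, Psme4 and Psmf1) may therefore share reads with it, and RefSeq's near-identical copies of Psma5, Psmb5, Psmb6, Psmb7 and Psme2 are not analysed here.

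Of 27179 gene identifiers, 25275 matched a symbol of the RefSeq annotation of GRCm38.p6. The fit used edgeR 4.0.16 under R 4.3.3 (filterByExpr, TMM, glmQLFit and glmQLFTest, group as the only term, all 5 libraries), with Benjamini-Hochberg adjustment over the 12747 genes tested and calls at 0.05. TMM factors were 1.07, 0.744 and 0.820 for ILC3, and 1.25 and 1.22 for CD4 T, where antigen receptor segment genes took 6.55%, 29.8% and 24.2% of counts in ILC3, and 17.0% and 10.2% in CD4 T. SE is the size of the log2 fold change over the square root of F. RPKM and ratios used joined exon lengths of GENCODE M21, and sums and ratios were compared by exact permutation over libraries. A count of 0 allows 3 counts. The scripts were tested on simulated data.

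The members, lists, tests and alternatives were chosen with earlier results of these data known. Named with values were the catalytic subunits, Psma8, Psmb11, the Psme, Psmf and Psmg genes, in each role the called members and the highest and lowest fold change, and up to 4 called genes of each other list, of which a few that the counts include are not reported here. Pomp, Sem1, Nfe2l1, B2m, H2-K1, Irf1 and the other single members were named after their values were seen.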

Additional observations from a re-analysis of the deposited data

How the results depend on the processing

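The alternatives were 4 other scalings, 2 other filters, 3 other tests, a replicate block and 5 fits with a library left out. The median log2 of the members stayed above that of all genes in each, by 0.34 without CD4 T replicate 1 to 1.00 without CD4 T replicate 2, and no called gene changed sign. The 4 scalings could hardly move this gap, since each shifts all genes of a library alike. The robust dispersion left both medians as they were. Calls were less stable: 25 of 49 members gained a call in at least 1 of the 15 alternatives, 2 lost theirs and 22 kept their side of the threshold in all. Members called higher and lower numbered 0 and 3 with library size alone, 5 and 1 with no low count filter, 13 and 2 by the DESeq2 Wald test (which called 29.6% of all genes), 10 and 1 by limma-voom (21.3%) and 2 and 1 with edgeR's robust dispersion. Leaving out a library gave 0 to 20 called higher and 0 to 1 lower. All 20 came without CD4 T replicate 2, where 42.9% of members and 19.5% of all genes were called, and there were none without CD4 T replicate 1.

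On library sizes alone the median of the members was 0.12, the log2 difference of summed levels 0.11, and 8 members were higher and 8 lower without overlap, against 15% and 40% of all genes. With a library left out the median ran from 0.32 to 1.04, the summed difference from 0.28 to 0.98 and the log2 difference of Psmb8 over Psmb5 from 0.27 to 0.65. The difference of the summed immunoproteasome catalytic genes turned to -0.28 with library size alone and ran from -0.10 to 0.59 with a library left out, and that of Psme1 plus Psme2 turned to -0.28 with library size alone. The cause of these shifts was not tested.

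The replicate block, possible for the 2 shared numbers, left 0 members called higher and 0 lower and 4.08% of all genes called. Psmc1 then had an edgeR adjusted p of 0.0936 and Psmd3 of 0.0674. Same-numbered libraries did not deviate together from their group means (r = -0.0463 and -0.0436 across genes), so the numbers were not taken as pairs. With 2 CD4 T libraries this check is weak, and whether libraries share a mouse is not known. The settings tried for Psma8 were chosen after seeing the data.

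Depth limits Psma8, Psmb11 and Psmc3ip, and each other member had at least 72 counts in every library. The number of libraries, 3 and 2, limits every test.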
